A study of Mus musculus with 12 samples.

Results

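Inflammatory signalling is held in check by inhibitors that the same signals often switch on. The 9 genes described here encode such inhibitors: Tnfaip3, Tnip1, Tnip3, Irak3, Zc3h12a, Zfp36, Socs1, Dusp1 and Dusp2. They were chosen by name, for their known roles, but with earlier results of these data known. All 9 were among the 18609 genes listed for every library and among the 12164 genes tested. The RNA, in 12 libraries, came from tumours formed by the mouse colon cancer cell line MC38. Hosts were WT C57BL/6 mice or TLR4 knockout C57BL/6 mice. Each host received PBS (phosphate-buffered saline) or Salmonella intravenously, and tumours were taken 1 day later. This gave 4 groups of 3 libraries, told apart in their titles by F-1, M-1 or M-2. MC38 tumours are common to every group. Left unstated by the labels are the Salmonella strain, the hosts' age, the deleted part of Tlr4, and whether the tumour cells lack the receptor. Separate animals are not stated for the libraries of a group either, so the spread behind each p-value is that between libraries and may be partly technical.

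Toll-like receptor 4 (TLR4) binds the lipopolysaccharide of Gram-negative bacteria such as Salmonella. Through adaptor proteins, IRAK kinases and ubiquitin chains it activates the transcription factor NF-kB and the MAP kinases, which turn on cytokine and chemokine genes. The inhibitors act at successive steps. Tnfaip3 encodes A20, an enzyme that edits ubiquitin chains, and Tnip1 and Tnip3 encode proteins that bind A20 (ABIN proteins). Irak3 encodes IRAK-M, which restrains the receptor-near kinases. Zc3h12a (regnase-1) cuts cytokine messenger RNAs, and Zfp36 (tristetraprolin) binds AU-rich elements and promotes their decay. Socs1 blocks JAK kinases downstream of cytokine receptors. Dusp1 and Dusp2 encode phosphatases that inactivate MAP kinases.

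Promoters are shown for the A20 group, because all 3 of its genes held an NF-kB motif, and for Socs1 and Dusp1, whose windows held other motifs. The Zfp36 window also held a motif and is not shown. Each run is the 200 bases before the RefSeq start site (GRCm38.p6), on the gene's strand, and motif matches are in capitals. The lines give, in order, Tnfaip3 at chr10:19015411-19015610 (minus strand), Tnip1 at chr11:54962941-54963140 (minus), Tnip3 at chr6:65590198-65590397 (plus), Socs1 at chr16:10785537-10785736 (minus) and Dusp1 at chr17:26508473-26508672 (minus).
Tnfaip3: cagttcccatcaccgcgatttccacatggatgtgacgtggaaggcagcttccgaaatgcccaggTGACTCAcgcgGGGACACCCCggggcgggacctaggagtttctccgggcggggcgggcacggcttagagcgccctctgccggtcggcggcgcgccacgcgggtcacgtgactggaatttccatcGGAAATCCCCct
Tnip1: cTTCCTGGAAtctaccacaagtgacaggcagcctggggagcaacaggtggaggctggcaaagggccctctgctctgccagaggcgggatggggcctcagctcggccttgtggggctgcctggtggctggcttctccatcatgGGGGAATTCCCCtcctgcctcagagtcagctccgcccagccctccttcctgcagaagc
Tnip3: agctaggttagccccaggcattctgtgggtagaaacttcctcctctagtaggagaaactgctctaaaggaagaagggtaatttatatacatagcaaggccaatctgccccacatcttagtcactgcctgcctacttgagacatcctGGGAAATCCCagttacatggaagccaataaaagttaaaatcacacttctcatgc
Socs1: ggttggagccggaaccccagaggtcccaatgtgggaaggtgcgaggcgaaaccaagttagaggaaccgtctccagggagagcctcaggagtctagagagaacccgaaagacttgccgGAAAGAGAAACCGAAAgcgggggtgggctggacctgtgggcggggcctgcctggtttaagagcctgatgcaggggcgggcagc
Dusp1: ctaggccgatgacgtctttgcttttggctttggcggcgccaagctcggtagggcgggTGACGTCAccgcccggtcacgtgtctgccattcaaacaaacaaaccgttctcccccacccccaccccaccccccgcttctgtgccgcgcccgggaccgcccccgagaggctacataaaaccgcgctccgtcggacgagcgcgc
Motifs were searched on both strands in windows from 250 bases before to 50 after a start site. The NF-kB consensus, of 10 bases, was found in 8.46% of 32851 such windows. Tnfaip3 held 2 matches, GGGACACCCC and GGAAATCCCC, Tnip1 held overlapping matches in GGGGAATTCCCC, and Tnip3 held GGGAAATCCC. The AP-1 motif TGANTCA, found in 7.81% of windows, stood in the Tnfaip3 window as TGACTCA. The GAS motif TTCNNNGAA, found in 8.30%, stood in the windows of Tnip1 and Zfp36. The cAMP response element TGACGTCA, found in 1.79%, stood in the Dusp1 window. The interferon regulatory factor element, GAAA then any 2 bases then GAAA, was found in 3.44% of windows and matched the Socs1 window at 2 overlapping places, GAAAGAGAAA and GAAACCGAAA. Tnfaip3 and Irak3 had more than 1 window, so the members had 11. The NF-kB consensus stood in 3 of these 11, a share that was not tested. All matches for Tnfaip3 lay in only 1 of its windows. No searched motif stood in the windows of Zc3h12a, Irak3 or Dusp2. A match describes letters in a window and is not evidence of binding.

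Libraries held 30512178 to 38764537 fragments on listed genes. At that depth 1 fragment in a 1 kb gene equals 0.0258 to 0.0328 FPKM (fragments per kilobase of gene, relative to library depth). The thinnest member values were 45 fragments for Irak3 and 52 for Tnip3, both in the knockout PBS library M-2. Tlr4 was at 2.53 ± 0.0534 FPKM (SD, n = 3) in wild-type PBS tumours and 2.99 ± 0.685 in wild-type Salmonella tumours, and at 2.29 ± 0.792 and 1.83 ± 0.116 in those of knockout hosts. Each library with a knockout label thus held Tlr4 RNA, at 1.59 to 3.15 FPKM. Knockout and wild-type hosts differed in Tlr4 by log2 -0.71 under Salmonella (SE 0.20, limma adjusted p = 0.0501), which did not pass the threshold of 0.05. Because the deleted part is not stated, this value does not check the labels. Of 8 epithelial markers for the labelled colon cancer cells, 1 was high enough to be tested, and their sum was 0.645 to 4.34 FPKM in every library, against 845 to 1955 for 8 fibroblast markers. The wild-type Salmonella library M-2 stood apart from its mates. After scaling between libraries it was the lowest of the 3 for all 9 genes, while 42.2% of all tested genes were lowest there. M-1 was highest for 6 genes, and F-1 was highest for Tnip3, Socs1 and Dusp2. Scaling factors were 0.851 and 0.853 for F-1 and M-1 and 1.035 for M-2. For comparisons that include this library, the number of the 9 genes called is given with and without it. Marker and pathway list results are given only with it.

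**Figure D1:**
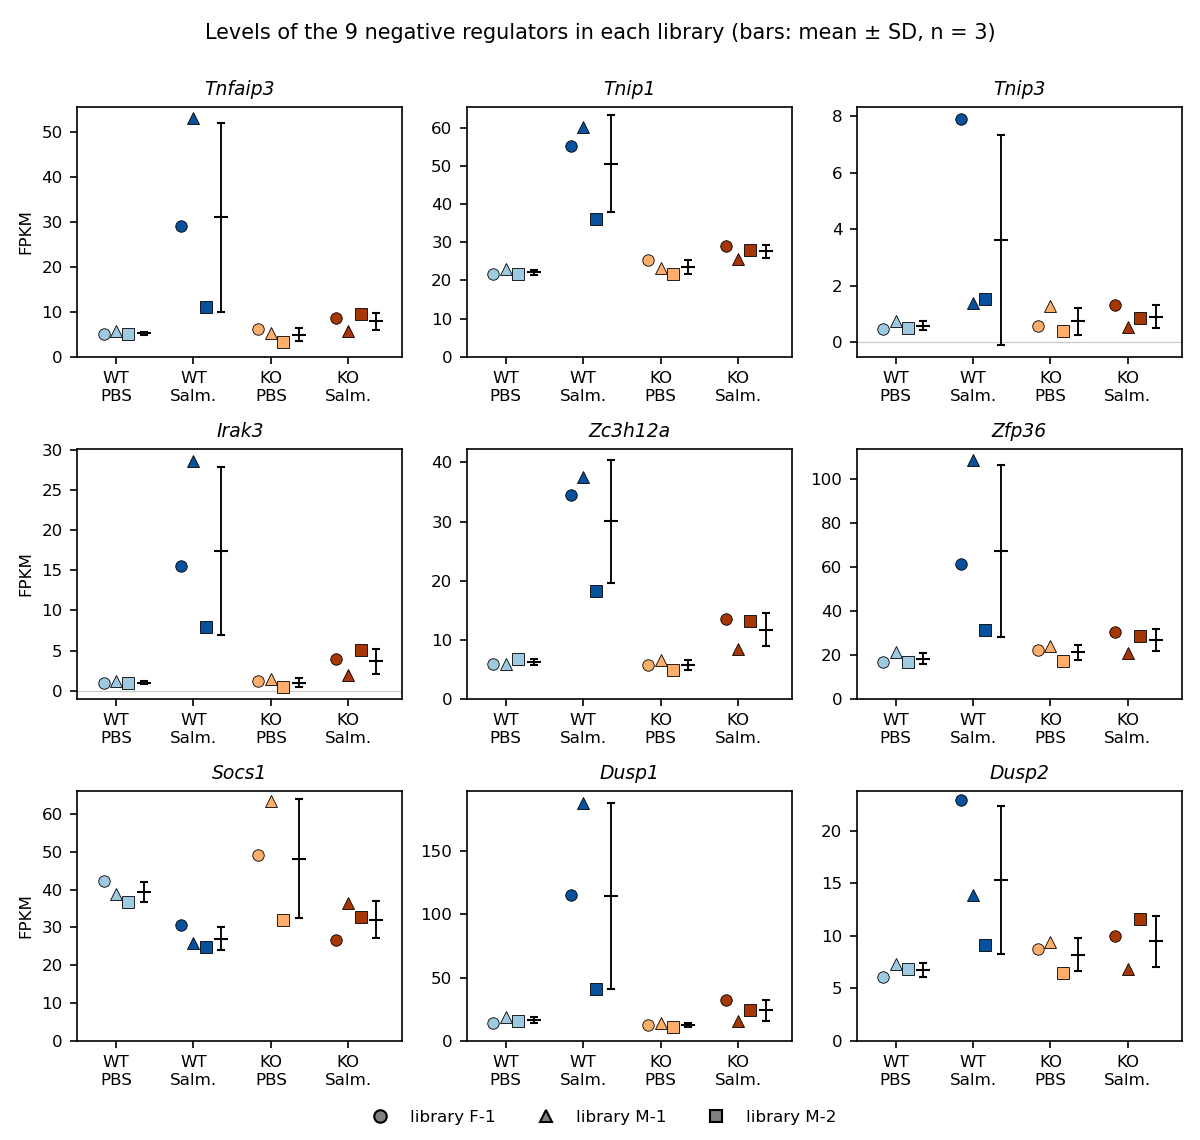
FPKM of the 9 genes in each library (linear axes from 0 or just under it), with wild-type (WT) and TLR4 knockout (KO) hosts under PBS or Salmonella (Salm.); symbols tell F-1, M-1 and M-2 apart, and bars give mean ± SD of 3. For Dusp1, wild-type Salmonella libraries reached 40.9 to 188 FPKM, and no other library exceeded 32.2.

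Wild-type tumours carried more RNA of 8 of the 9 inhibitors 1 day after Salmonella than after PBS, and Socs1 was the exception. Over all tested genes 18.6% were called higher and 17% lower in this comparison, so 52.2% of the calls were higher, and 30.8% with FPKM not scaled between libraries, which shifts the median of all genes to -0.19. That setting changed the direction of none of the 9 genes in any comparison. The median log2 fold change of the 9 genes was 1.88, and that of all tested genes was -0.01. Fold changes here compare scaled log2(FPKM + 0.5) values, a scale that understates changes of low genes. In FPKM the Salmonella and PBS groups did not overlap for any of the 9 genes, 8 higher and Socs1 lower, and they did not overlap for 45.4% of all tested genes. These are bulk tumours, in which more cells that express a gene and more RNA per cell cannot be told apart.

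The ubiquitin editors come first. Tnfaip3 was at 5.16, 5.65 and 5.02 FPKM in wild-type PBS tumours (in the order F-1, M-1, M-2), and at 29.0, 53.0 and 11.1 FPKM in the Salmonella libraries in the same order. All Salmonella libraries lay above all PBS libraries, and M-2 rose least. Its log2 fold change was 2.38 (SE 0.50, adjusted p = 0.00688).

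Tnip1, the more abundant A20 partner, was at 21.7, 22.9 and 21.8 FPKM under PBS and at 55.3, 60.2 and 36.2 FPKM under Salmonella. It changed less than Tnfaip3 in every library and had the smallest standard error of the 8 genes that rose, with a log2 fold change of 1.33 (SE 0.20, adjusted p = 0.00162). Tnip3, the scarcest of the 9, was at 0.475, 0.757 and 0.515 FPKM under PBS and at 7.92, 1.40 and 1.52 FPKM under Salmonella. F-1 alone carried most of that rise. Tnip3 passed with a log2 fold change of 1.71 (SE 0.54, adjusted p = 0.0314), which was 0.97 without F-1 (adjusted p = 0.049). Its call was lost with voom on recovered fragments (adjusted p = 0.0682), with only the groups compared (0.083), and without any 1 of the PBS libraries (0.0619 to 0.0847).

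Irak3, the inhibitor nearest the receptor, had the largest fold change of the 9. It was at 0.931, 1.17 and 0.930 FPKM under PBS and at 15.5, 28.7 and 7.96 FPKM under Salmonella. The lowest Salmonella library was thus far above the highest PBS library. The log2 fold change was 3.57 (SE 0.49, adjusted p = 0.00128).

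Of the genes for proteins that act on messenger RNA, Zc3h12a was at 5.97, 5.93 and 6.74 FPKM under PBS and at 34.5, 37.5 and 18.2 FPKM under Salmonella. F-1 and M-1 were alike and M-2 lower, and the log2 fold change was 2.31 (SE 0.30, adjusted p = 0.00105). Zfp36 was at 16.8, 21.3 and 16.7 FPKM under PBS and at 61.4, 109 and 31.3 FPKM under Salmonella. Its Salmonella libraries spread more widely than those of Zc3h12a, from 1.71 to 7.16 times the PBS mean against 2.79 to 6.88 times, on scaled FPKM + 0.5, and its log2 fold change was 1.88 (SE 0.41, adjusted p = 0.00801).

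Dusp1, a phosphatase gene that responds early to stress and growth factors, was at 14.3, 18.8 and 15.4 FPKM under PBS. Under Salmonella it was at 115, 188 and 40.9 FPKM, the highest level of any of the 9 genes. Its log2 fold change was 2.74 (SE 0.51, adjusted p = 0.00437). Dusp2, whose product acts in the nucleus of immune cells, was at 6.09, 7.35 and 6.79 FPKM under PBS and at 22.9, 13.9 and 9.08 FPKM under Salmonella. The gap to PBS was small in M-2, and the log2 fold change was 1.22 (SE 0.33, adjusted p = 0.0189). Its call was lost in the fit of the compared groups alone (adjusted p = 0.0562) and without PBS F-1 or M-2 or Salmonella F-1 or M-1 (adjusted p from 0.0549 to 0.0573).

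Socs1 stood apart. It was at 42.2, 38.9 and 36.8 FPKM under PBS and at 30.5, 25.8 and 24.8 FPKM under Salmonella. All 3 Salmonella libraries were lower in FPKM, but after scaling F-1 differed from the PBS mean by only -0.07 on the log2 scale. The log2 fold change was -0.34 (SE 0.22, 95% interval -0.82 to 0.13, adjusted p = 0.228), so a rise above 0.13 lay outside the interval, and the difference did not pass.

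Without the Salmonella library M-2 these 8 genes passed, with log2 fold changes of 3.07 for Tnfaip3, 1.65 for Tnip1, 2.12 for Tnip3, 4.11 for Irak3, 2.73 for Zc3h12a, 2.43 for Zfp36, 3.45 for Dusp1 and 1.63 for Dusp2. Because M-2 was the lowest of its group for each of them, larger values without it follow from that choice. Markers of other cells moved as well. All 14 tested neutrophil markers rose in wild-type hosts, and the 15 markers summed to 26.1 to 31.8 FPKM under PBS and to 3210 (F-1), 19071 (M-1) and 2856 FPKM (M-2) under Salmonella. Under PBS 2 to 4 of them were at 0, Cxcr1 in every library, and under Salmonella none was. Tnfaip3 was at 29.0, 53.0 and 11.1 FPKM in F-1, M-1 and M-2 under Salmonella. Of the endothelial markers 9 of 10 rose, from summed levels of 43.9 to 59.8 up to 105 to 133 FPKM. Macrophage and monocyte markers, 14 in all, summed to 738 to 1213 FPKM under PBS and 504 to 813 under Salmonella, with 2 higher and 3 lower. Of 7 tested skeletal muscle markers, 5 rose, and the sum of all 8 went from 3.45 to 7.45 FPKM up to 45.4 to 95.5. Of 8 fibroblast markers 3 rose and 1 fell, with sums of 985 to 1212 FPKM under PBS and 1477 to 1955 under Salmonella, and of 10 tested T and NK cell markers 0 rose and 2 fell by limma. The part of these cells in the 9 genes' changes was not tested.

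In knockout hosts 0 of the 9 genes passed for Salmonella against PBS, by limma or by voom, and 3 had an unadjusted p under 0.05. Over all tested genes 0.444% were called higher and 0.329% lower. The members' median log2 fold change was 0.35, against 0.00 for all tested genes. In FPKM the groups did not overlap, with Salmonella higher, for Tnip1, Irak3, Zc3h12a and Dusp1, and they did not overlap for 29.4% of all tested genes.

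Zc3h12a was at 5.73, 6.56 and 4.91 FPKM in knockout PBS tumours (again F-1, M-1, M-2) and at 13.5, 8.49 and 13.2 FPKM under Salmonella. Every Salmonella library lay above every PBS library, and the log2 difference was 0.98 (SE 0.30, 95% interval 0.31 to 1.64, adjusted p = 0.132). Irak3 was at 1.21, 1.40 and 0.391 FPKM under PBS and at 3.94, 1.94 and 5.03 FPKM under Salmonella. Its groups did not overlap either, at a log2 difference of 1.47 (SE 0.49, interval 0.39 to 2.55, adjusted p = 0.156).

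Dusp1 was at 12.1, 14.2 and 10.8 FPKM under PBS and at 32.2, 15.3 and 24.7 FPKM under Salmonella. The lowest Salmonella library was just above the highest PBS library, and the log2 difference was 0.90 (interval -0.23 to 2.04, adjusted p = 0.366). Tnip1 stayed within a narrow range, at 25.4, 23.3 and 21.8 FPKM under PBS and 29.1, 25.7 and 28.1 FPKM under Salmonella, with a log2 difference of 0.26 (interval -0.19 to 0.70, adjusted p = 0.517).

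Tnfaip3 overlapped between the knockout groups. It was at 6.13, 5.30 and 3.40 FPKM under PBS and at 8.58, 5.71 and 9.41 FPKM under Salmonella, where M-1 lay below the PBS library F-1. Its log2 difference was 0.66 (interval -0.45 to 1.76, adjusted p = 0.5). Zfp36, at 22.2, 24.0 and 17.2 FPKM under PBS, was at 30.5, 20.9 and 28.5 FPKM under Salmonella. It overlapped in the same library, with a log2 difference of 0.35 (interval -0.56 to 1.25, adjusted p = 0.67).

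The remaining 3 genes also overlapped. Tnip3 was at 0.577, 1.28 and 0.379 FPKM under PBS and 1.33, 0.554 and 0.839 FPKM under Salmonella, a log2 difference of 0.22 (interval -0.97 to 1.41, adjusted p = 0.854). Dusp2 was at 8.72, 9.42 and 6.46 FPKM under PBS and 10, 6.81 and 11.6 FPKM under Salmonella, a log2 difference of 0.21 (interval -0.53 to 0.94, adjusted p = 0.763). Neither gene showed a difference beyond the spread of its libraries. Socs1 was at 49.1, 63.5 and 32.0 FPKM under PBS and 26.7, 36.5 and 32.8 FPKM under Salmonella. It was lower on average, as in wild-type hosts, with a log2 difference of -0.51 (interval -0.99 to -0.04, adjusted p = 0.227). The low PBS value was that of M-2, and without that library Socs1 passed at -0.77 (adjusted p = 0.0473).

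The knockout libraries also differed among themselves. Under Salmonella, M-1 was lowest after scaling for 8 of the 9 genes and highest for Socs1, while 31.6% of tested genes were lowest there. M-1 also had the lowest neutrophil marker sum, 560 FPKM, against 856 in F-1 and 994 in M-2. Its sums were lowest as well for endothelial (57.6 FPKM), fibroblast (864), T and NK cell (5.26) and skeletal muscle markers (4.98). For macrophage and monocyte, B cell and epithelial markers M-1 was not the lowest. In the knockout PBS group M-2 was lowest for all 9 genes, and 33.4% of tested genes were lowest there. That library also had the lowest neutrophil (18.5 FPKM), macrophage and monocyte (662) and T and NK cell sums (9.32). It was not the lowest for the other marker lists, and was highest for endothelial markers (61.1 FPKM). Of the 14 tested neutrophil markers 7 rose in knockout hosts, from sums of 18.5 to 34.8 FPKM under PBS. The part of any of these cells in the 9 genes' values was not tested.

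**Figure D2:**
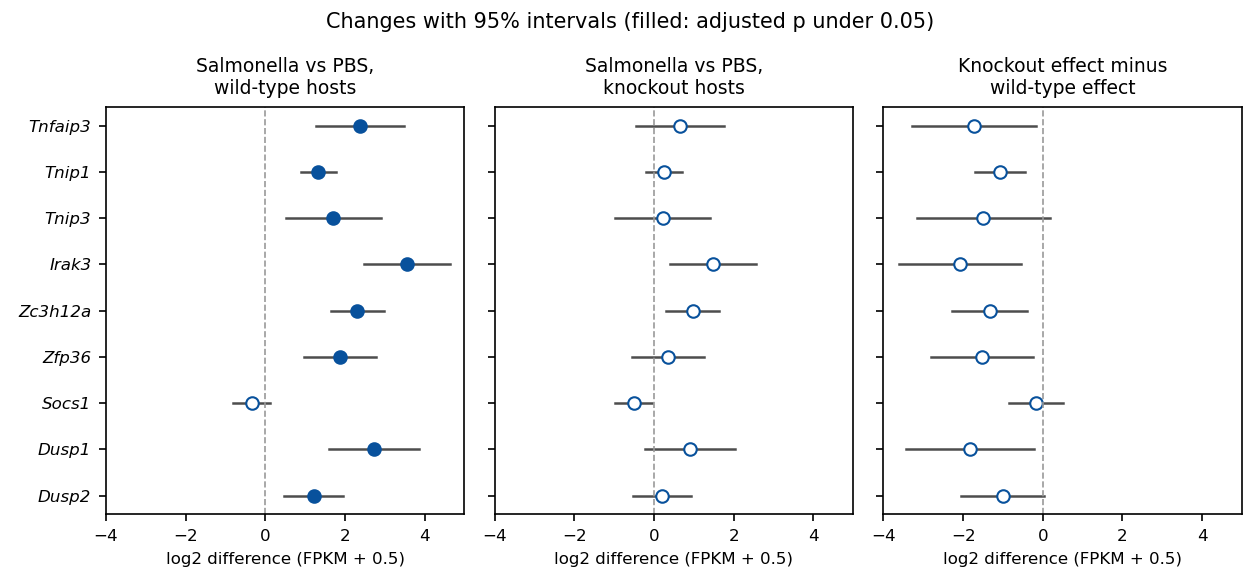
Log2 differences of the 9 genes with 95% intervals for the wild-type response to Salmonella, the knockout response, and the difference between both effects; filled points passed an adjusted p of 0.05. In wild-type hosts 8 genes passed, in knockout hosts none did, and every point of the last panel lies below 0.

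Under PBS no difference between the hosts was called for these genes by limma, with adjusted p of 1 for each, and none had an unadjusted p under 0.05. Of all tested genes 0% were called higher and 0% lower, and 173 had an unadjusted p under 0.05. Voom also called none of the 9. Differences between knockout and wild-type hosts ran from log2 -0.37 for Dusp1 to 0.25 for Dusp2. The fit shares 1 spread per gene over the 4 groups, so Dusp1 had an SE of 0.51 here too. Its libraries were at 16.2 ± 2.32 and 12.4 ± 1.71 FPKM under PBS, against 115 ± 73.5 in wild-type Salmonella tumours. Intervals here and in knockout hosts thus do not measure the spread of the compared libraries alone. In FPKM the groups did not overlap for Dusp1 alone, which was lower in knockout hosts, while they did not overlap for 7.89% of all tested genes.

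Under Salmonella 5 of the 9 genes were lower in knockout than in wild-type hosts. Among all tested genes 3.39% were called higher and 5.65% lower, so 37.5% of the calls were higher, and 58.5% without scaling. The members' median log2 difference was -1.35, and that of all tested genes was 0.02. Dusp1 averaged 115 ± 73.5 FPKM in wild-type and 24.1 ± 8.47 FPKM in knockout hosts (SD, n = 3), a log2 difference of -2.20 (SE 0.51, adjusted p = 0.0318). Irak3 had means of 17.4 ± 10.5 and 3.64 ± 1.57 FPKM, a log2 difference of -2.17 (adjusted p = 0.0297). The other 3 that passed were Tnfaip3 (31.0 ± 21.0 and 7.90 ± 1.94 FPKM, log2 -1.84, adjusted p = 0.0474), Zc3h12a (30.1 ± 10.4 and 11.7 ± 2.81 FPKM, log2 -1.44, adjusted p = 0.0234) and Tnip1 (50.6 ± 12.7 and 27.6 ± 1.73 FPKM, log2 -0.99, adjusted p = 0.0206).

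The knockout libraries lay below every wild-type library for these 5 genes and for Tnip3 and Zfp36, 7 in all, and the groups did not overlap for 27% of all tested genes. Zfp36 missed the threshold at a log2 difference of -1.33 (67.3 ± 39.3 against 26.6 ± 5.04 FPKM, adjusted p = 0.0668), Tnip3 at -1.35 (3.61 ± 3.73 against 0.906 ± 0.390 FPKM, adjusted p = 0.124) and Dusp2 at -0.76 (15.3 ± 7.0 against 9.47 ± 2.44 FPKM, adjusted p = 0.154). Socs1 differed by 0.07 (adjusted p = 0.842) and was at 27.0 ± 3.03 and 32.0 ± 4.95 FPKM. The 5 calls depended on which libraries were used. None was left without wild-type F-1, without wild-type M-1, without knockout M-1 or without knockout M-2, and 3 were left without knockout F-1. Without wild-type M-2, 8 were called, with Tnfaip3 at -2.53, Dusp1 at -2.91 and Irak3 at -2.72 on the log2 scale. That library was the lowest of its group for all 9 genes, so leaving it out makes these differences more negative by construction. None was called when the spread was estimated from these groups alone, and 3 were called by voom. Neutrophil markers moved with these genes: 12 of 14 tested were lower in knockout hosts, with sums of 560 to 994 against 2856 to 19071 FPKM. Endothelial markers did so too, 7 of 10 lower, with sums of 57.6 to 83.0 against 105 to 133 FPKM. Of 8 fibroblast markers 3 were lower and 0 higher, with sums of 864 to 1143 against 1477 to 1955 FPKM. Of 14 macrophage and monocyte markers 1 was lower and 0 higher, at a median log2 difference of 0.03. Among 10 tested T and NK cell, 2 B cell and 7 skeletal muscle markers 0 were called, at medians of -0.31, 0.16 and -1.58. The part of any of these cells was not tested.

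The interaction asks whether the response to Salmonella itself differed between hosts. The knockout response was below the wild-type response for all 9 genes (Socs1 turned to 0.05 without knockout PBS M-1), but 0 passed, by limma or by voom, and 6 had an unadjusted p under 0.05. Among all tested genes 0% were called higher and 0.0247% lower (16.7% of 6 calls were higher without scaling). Differences of log2 fold change were -2.09 for Irak3 (adjusted p = 0.261), -1.83 for Dusp1 (0.312 by the same adjustment), -1.72 for Tnfaip3 (0.317), -1.53 for Zfp36 (0.301), -1.49 for Tnip3 (0.376), -1.33 for Zc3h12a (0.261), -1.08 for Tnip1 (0.221), -1.01 for Dusp2 (0.351) and -0.17 for Socs1 (0.795). The members' median was -1.49, and that of all tested genes was 0.01. Without wild-type Salmonella M-2, 7 of the 9 passed, all but Tnip3 and Socs1. This was the only 1 of 20 alternatives in which any of the 9 passed. M-2 was singled out as the lowest of its group for all 9 genes. Leaving it out thus enlarges their wild-type response by construction, and these calls are no separate support. Without M-2, Tnip1 had the smallest adjusted p, 0.000394, at a difference of -1.39. The same omission raised the calls among all tested genes from 3 to 2236.

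**Figure D3:**
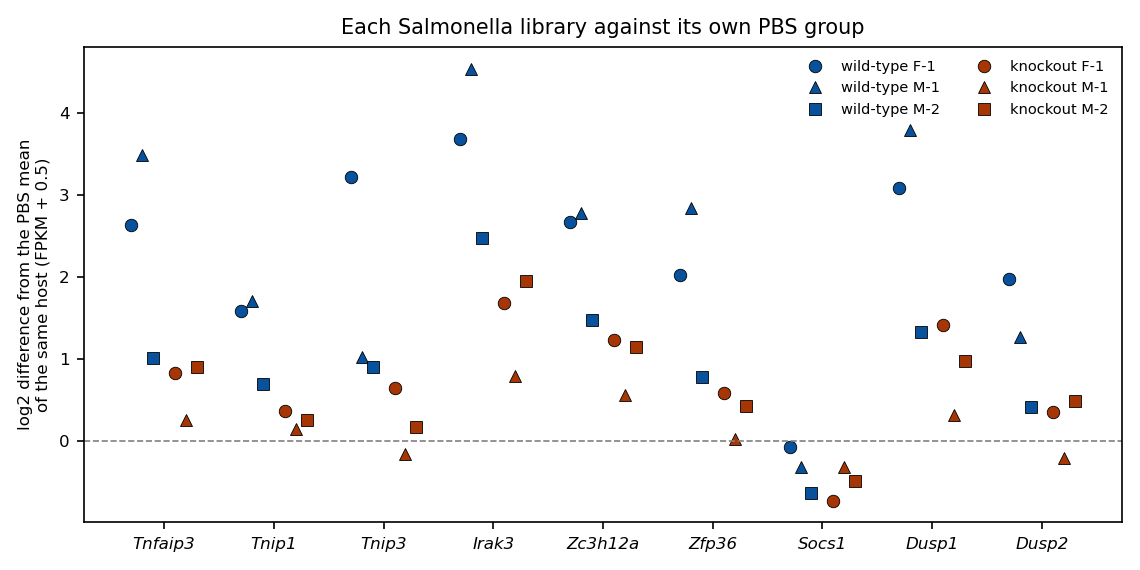
Log2 difference of each Salmonella library from the PBS mean of the same host, on scaled log2(FPKM + 0.5), for the 9 genes; colour gives the host and the symbol gives the library. Wild-type M-2 (blue square) is the lowest wild-type point for all 9 genes, for example at 1.01 for Tnfaip3 against 0.25 to 0.90 in knockout hosts.

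Taken library by library and after scaling, Dusp1 in wild-type hosts was at 8.52, 13.9 and 2.51 times the PBS mean (FPKM + 0.5) in F-1, M-1 and M-2, and in knockout hosts at 2.66, 1.25 and 1.97 times. Knockout F-1 thus exceeded wild-type M-2. Irak3 was at 12.8, 23.2 and 5.58 times in wild-type hosts and at 3.20, 1.73 and 3.85 times in knockout hosts, without overlap. Zc3h12a did not overlap either, at 6.36, 6.88 and 2.79 times against 2.35, 1.47 and 2.20 times. Nor did Tnfaip3, Tnip1, Tnip3 and Zfp36, while Dusp2 and Socs1 overlapped. The share of all tested genes without such overlap was not determined, so nothing particular to these genes is read from it.

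The relatives of these inhibitors were followed in lists that leave out the 9 genes, in the order of the pathway. No list gene was called for the interaction or between hosts under PBS. The list counts for wild-type hosts stand beside the 18.6% of all tested genes that were higher and the 17% that were lower. Those between hosts under Salmonella stand beside 3.39% higher and 5.65% lower in the knockout. Nothing particular to a list is read from these counts. The first list holds 10 genes, of the A20 complex, other deubiquitinases and the further regulators Usp18, Tnfaip8l2 and Trafd1. Of these 10, 1 rose and 2 fell in wild-type hosts, with a median log2 fold change of 0.04. With FPKM not scaled between libraries 1 rose and 4 fell, at a median of -0.16. Tax1bp1, an adaptor of A20, rose from 46.8 ± 1.35 to 57.8 ± 2.93 FPKM (log2 0.49, adjusted p = 0.00554). Cyld, a deubiquitinase that also restrains NF-kB, fell from 11.6 ± 0.349 to 6.09 ± 1.91 FPKM (log2 -0.73, adjusted p = 0.00647). The other 7 genes did not pass. Between hosts under Salmonella 3 of the 10 were higher in the knockout and 0 lower.

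Of 11 NF-kB inhibitors and subunits, 7 rose, 0 fell and 4 did not pass in wild-type hosts, with a median of 0.55. Nfkbia, which encodes the inhibitor that holds NF-kB in the cytoplasm, rose from 64.6 ± 4.53 to 238 ± 96.8 FPKM (log2 1.98, adjusted p = 0.00162). Nfkbiz, an atypical nuclear member of that family, rose from 9.59 ± 0.831 to 42.1 ± 14.4 FPKM (log2 2.21, adjusted p = 0.00215). In knockout hosts 0 of 11 passed by limma, and the log2 differences were 0.74 for Nfkbia (adjusted p = 0.204) and 1.01 for Nfkbiz (adjusted p = 0.158). Between hosts under Salmonella 3 were lower in the knockout, both of these among them, and 0 higher.

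A list of 15 genes joins IRAK kinases, adaptors and brakes at the receptor with the receptor and co-receptor genes Tlr2, Cd14 and Ly96. Of these 15, 6 rose and 1 fell in wild-type hosts, with a median of 0.15. Without scaling 5 rose and 4 fell, at a median of -0.04. Il1r2, the decoy receptor for interleukin-1, rose from 1.65 ± 0.765 to 56.9 ± 44.0 FPKM (log2 4.70, adjusted p = 0.000604). Cd14, the co-receptor that hands lipopolysaccharide to TLR4, rose from 11.3 ± 2.38 to 333 ± 222 FPKM (log2 4.73, adjusted p = 0.00086). Both are also expressed by neutrophils and monocytes. In knockout hosts their log2 differences were 1.80 and 2.20, and neither passed (adjusted p = 0.113 and 0.0997). Between hosts under Salmonella 1 of the 15 was higher in the knockout and 2 were lower (0 and 2 with voom).

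Of the 7 SOCS genes other than Socs1, 2 rose, 2 fell and 3 did not pass in wild-type hosts (1 rose and 2 fell without scaling, and likewise with voom). Socs3, the inhibitor of interleukin-6 type signalling, rose from 30.1 ± 3.58 to 90.8 ± 35.5 FPKM (log2 1.69, adjusted p = 0.00846), and Socs5 fell from 5.25 ± 0.186 to 2.74 ± 0.614 FPKM (log2 -0.68, adjusted p = 0.00308). Of 15 JAK-STAT genes 1 rose and 2 fell (1 and 6 without scaling, median -0.23). Stat5a rose from 8.59 ± 0.162 to 11.9 ± 1.06 FPKM (log2 0.64, adjusted p = 0.00447). In knockout hosts none of these SOCS and JAK-STAT genes passed, and between hosts under Salmonella 1 SOCS gene was higher in the knockout.

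Of 13 dual-specificity phosphatases other than Dusp1 and Dusp2, 3 rose, 4 fell and 6 did not pass in wild-type hosts (2 rose and 4 fell without scaling, 3 and 2 with voom). Dusp6, which acts on ERK, fell from 34.5 ± 1.44 to 19.9 ± 3.23 FPKM (log2 -0.60, adjusted p = 0.000604), and Dusp18 fell from 7.65 ± 0.116 to 4.06 ± 1.98 FPKM (log2 -0.75, adjusted p = 0.00861). Among those that rose, Dusp16, chosen after its values were seen, went from 4.14 ± 0.543 to 11 ± 4.98 FPKM (log2 1.40, adjusted p = 0.00945). Dusp6 also fell in knockout hosts, from 39.1 ± 2.59 to 27.2 ± 1.11 FPKM (log2 -0.49, adjusted p = 0.016). Between hosts under Salmonella 2 of the 13 were higher in the knockout and 0 lower (0 and 0 with voom). Of 15 MAP kinase genes 5 rose and 4 fell in wild-type hosts (3 and 6 without scaling, median -0.23). For these 15, between hosts under Salmonella, 2 were lower in the knockout and 0 higher (0 and 0 with voom). Mapk13, a p38 isoform, went from 0.0722 ± 0.0654 to 2.89 ± 2.47 FPKM (log2 2.47, adjusted p = 0.00196), and Mapk9, a JNK gene, fell from 18.5 ± 0.256 to 12.3 ± 2.90 FPKM (log2 -0.41, adjusted p = 0.00446). The PBS libraries for Mapk13, at 0 to 0.127 FPKM, were all below the filter level of 0.5, so its fold change depends on the 0.5 added. Under Salmonella it ranged from 1.25 to 5.73 FPKM.

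Among the RNA-binding relatives and decay partners, 3 of 13 tested genes rose and 1 fell in wild-type hosts (2 and 4 without scaling, median -0.28). Between hosts under Salmonella 1 was higher in the knockout and 2 were lower (1 and 1 with voom). The paralogues of Zfp36 went opposite ways: Zfp36l2 fell from 100 ± 5.33 to 55.5 ± 13.9 FPKM (log2 -0.68, adjusted p = 0.00122), and Zfp36l1 rose from 76.9 ± 6.18 to 97.2 ± 11.6 FPKM (log2 0.53, adjusted p = 0.015). The last list holds transcripts known to be destabilised by Zc3h12a or Zfp36. It shares Nfkbiz with the NF-kB list. Of 18 tested, 15 rose in wild-type hosts and 0 fell, with a median of 2.57, and 5 rose in knockout hosts, with a median of 1.32. The neutrophil attractant Cxcl3 rose to 293 ± 287 FPKM in wild-type and 21.7 ± 3.53 FPKM in knockout hosts, from 0.202 ± 0.199 and 0.0942 ± 0.140 FPKM (log2 8.41 with adjusted p = 0.000121, and 5.22 with adjusted p = 0.00996). All its PBS libraries were below 0.5 FPKM, so these fold changes depend on the 0.5 added. Lcn2, which withholds iron from bacteria and is made by neutrophils too, rose to 1180 ± 1002 and 91.8 ± 52.1 FPKM (log2 9.63 with adjusted p = 0.000132, and 6.24 with adjusted p = 0.00996). Voom called 11 of the 18 in wild-type and 0 in knockout hosts. Under Salmonella 6 of the 18 were lower in knockout hosts and 0 higher (5 and 0 with voom).

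**Figure D4:**
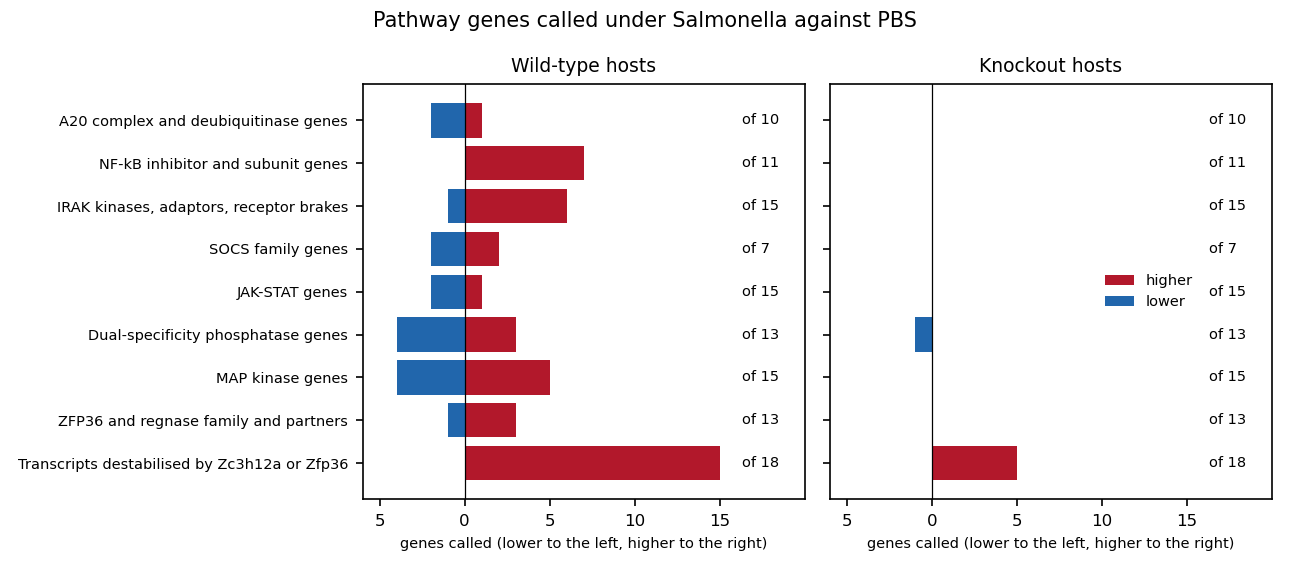
Number of genes of each pathway list called higher (right, red) or lower (left, blue) for Salmonella against PBS in each host, with the number tested at the right; the 9 inhibitors are left out. The transcripts destabilised by Zc3h12a or Zfp36 gave 15 of 18 higher in wild-type hosts and 5 in knockout hosts.

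For each inhibitor, the tested genes whose levels followed it most closely over the 12 libraries were found among 10765 genes, by Pearson's r of the scaled log2 levels. Because libraries share treatment and host, r is a description only. Tnfaip3 was most like Pim1 (r = 0.991) and Smox (0.989), Tnip1 like Pram1 (0.992) and Glipr2 (0.991), and Irak3 like Trem3 (0.995) and Nfkbiz (0.994). Zc3h12a was most like Angptl4 (r = 0.991) and Rnf144a (0.989), Zfp36 like Rab20 (0.991) and Rabgef1 (0.989), and Dusp1 like Rgcc (0.989). Tnip3 had Htra4 (r = 0.962) and Cpa3 (0.935), and Dusp2 had Adora2a (0.948) and Dram1 (0.947). Socs1 was most like Igtp (r = 0.953) and Psmb8 (0.945), both known as interferon-gamma responsive genes. Igtp had means of 122, 67.7, 172 and 94.1 FPKM in wild-type PBS, wild-type Salmonella, knockout PBS and knockout Salmonella tumours. Socs1 had means of 39.3 ± 2.72, 27.0 ± 3.03, 48.2 ± 15.8 and 32.0 ± 4.95 FPKM in these groups, the same order from high to low. Neither the PBS pair nor the Salmonella pair of that order was called different, and wild-type PBS was not tested against knockout Salmonella.

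Genome positions bear on how reads were assigned. In GENCODE M21 (GRCm38), Irak3 on chromosome 10 (120141648 to 120202130, minus strand) shares up to 122 exonic bases with Tmbim4 on the other strand, Zfp36 on chromosome 7 (28376784 to 28380253, minus strand) up to 125 bases with Gm44710, and Dusp1 on chromosome 17 (26505590 to 26562128, minus strand) up to 11 bases with Ergic1. No strand setting is given, so fragments there cannot be told apart. The other 6 genes have no annotated exon overlap with another gene.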

How the data were processed

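Total RNA from 12 MC38 tumour libraries was extracted with TRIzol and made into libraries with the VAHTS Universal V6 kit, per the labels' protocols. Fastp, HISAT2 and HTSeq are named without version or role in the submitters' processing notes; the sources used here give no genome build, annotation or strand setting. For each library the authors deposited a table whose unit was inferred from the values to be FPKM. For 18609 of 18609 genes the values of all libraries were whole fragments within 0.01 fragments at 1 gene length, which gave the depth.

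Groups came from the genotype and treatment labels. FPKM were divided by scaling factors (a mean of log ratios after trimming 30% by ratio and 5% by level at either end). The 12164 genes that reached 0.5 FPKM in 3 or more libraries were tested as log2(FPKM + 0.5) with limma 3.58.1 in R 4.3.3 (empirical Bayes with trend and robust settings, 1 mean per group, 8 residual degrees of freedom). The 5 comparisons gave two-sided p-values with Benjamini-Hochberg adjustment over all tested genes, at a threshold of 0.05. The fit was also run on simulated data with the same dispersion in every group. That run cannot check the fit for groups that differ in spread. Library pairs of a group held no identical values (chi-square per gene 16.8 to 165.9). Pathway genes are named by the 2 smallest p in wild-type hosts per list, and likeness by the 2 highest r per member; some genes that these rules name are not reported here. Members, lists and the naming rule were chosen with earlier results of these data known. Alternatives were pseudocounts of 0.1 and 1, no filter, FPKM as deposited, median-of-ratios scaling, only the groups compared, the replicate label as a block, the title letter as a covariate, voom on recovered fragments and each library left out. Depth limits and fragment numbers cover counting error only. Promoter sequences are from RefSeq (GRCm38.p6), matched by symbol for 9 of 9 members, and positions from GENCODE M21, which may not be the authors' annotation.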

Additional observations from a re-analysis of the deposited data

How the results depend on the processing

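In wild-type hosts the calls of Tnfaip3, Tnip1, Irak3, Zc3h12a, Zfp36 and Dusp1 held under all 15 alternatives for that comparison. The count of all genes called there, 4330, was 2436 with only the groups compared and 2049 to 6220 with single libraries left out. In knockout hosts the count of all genes, 94, was 37 with no filter, 188 with only the groups compared, 45 with the replicate label as a block and 23 with voom, and 4 to 307 with single libraries left out. The members called there were 0, and 0 to 1 with libraries left out. Under PBS 1 gene was called with no filter (0 in the reported fit). For knockout against wild-type hosts under Salmonella, 1099 genes became 12 with only the groups compared and 572 with voom, and 10 to 4595 with libraries left out; the 5 members became 0, 3, and 0 to 8. For the interaction, 3 genes became 6 with FPKM as deposited and 0 with voom, and 2 to 2236 with libraries left out, while members ranged from 0 to 7. Some small differences changed sign when 1 library was left out. For knockout against wild-type hosts under PBS, leaving out knockout PBS libraries gave -0.14 to 0.36 for Tnip3, -0.27 to 0.10 for Tnfaip3 and -0.28 to 0.25 for Irak3, on the log2 scale. Under Salmonella Socs1 ranged from -0.08 (without wild-type M-2) to 0.20, with -0.03 without knockout M-1, and its interaction ranged from -0.43 to 0.05 (without knockout PBS M-1). Tnfaip3, the weakest of the 5 calls between hosts under Salmonella, was lost in 11 of 15 alternatives. The cause of these changes was not tested.

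Correlations of deviations in groups of 3 libraries cannot decide whether replicate labels pair the samples. Of 18 same-label pairs of deviations 7 correlated above 0.1 (range -0.33 to 0.4). Of 12 libraries 5 correlated best with a library of their own label. With the label as a block 45 genes were called in knockout hosts, and among the members only the call of Tnfaip3 between hosts under Salmonella was lost (-1.84, adjusted p = 0.0503). Depth limited Tnip3 and Irak3 most, at 52 and 45 fragments in their thinnest libraries.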
